A study of Mus musculus with 5 samples.

Results

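The Hox genes are the 39 protein-coding genes of the mouse whose symbols in the GENCODE vM1 annotation of the mm9 genome are Hoxa, Hoxb, Hoxc or Hoxd followed by a number. The annotation holds 22380 protein-coding genes in all, and Hoxa3 appears in it under 2 identifiers, so that the 39 genes carry 40. A peak of acetylated histone H3 lysine 9 (H3K9ac) belonged to the Hox genes if it was centred at most 10 kb from an annotated transcript start of any of them, and a peak near several Hox genes was counted a single time. By this rule 86 of the 34286 peaks of DOP-treated cells and 83 of the 33355 peaks of untreated cells were Hox peaks.

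The peaks came from chromatin immunoprecipitation and sequencing (ChIP-seq) of STHdh Q111 cells, an immortalized line of striatal progenitor cells of the mouse, labelled C57BL/6 in strain and mutant (STHdhQ111/Q111) in genotype, which express mutant huntingtin and are grown at a permissive temperature. All cells analysed spent 24 h in serum-free medium, which held 4 mM 4-deoxypyridoxine hydrochloride (DOP), an inhibitor of the sphingosine-1-phosphate lyase enzyme, in 2 samples and the vehicle (DPBS) in the other 2, here called untreated. Normal rabbit IgG was used on 1 further sample of untreated cells, which has no list of its own. The authors deposited 1 peak list per condition, so a difference between the lists below has no replicate error, and no test of it could be made. Values given with DOP and without are those of the DOP-treated and the untreated list.

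Hox genes encode homeodomain transcription factors that give cells their position along the head-to-tail axis of the embryo. They lie in 4 clusters on different chromosomes, within which the genes are transcribed in the same direction, and genes that take the same place in different clusters are paralogues and share a number. Low numbers are active in the anterior hindbrain and neck, and high numbers in the trunk, limbs and tail, whereas the forebrain, from which the striatum arises, forms in front of the domain of Hox expression. H3K9ac marks nucleosomes near the starts of active genes, and silent Hox genes typically carry Polycomb marks.

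Each deposited peak is a called position with an interval of 200 bp around it and a score. What the score counts is not stated, and it was used here to rank peaks within a list and, as the authors' value, to set the lists side by side. The percentile of a peak is its rank by score within its own list, on a scale from 0 to 100. Among peaks with no neighbour within 1 kb, 97.9% of scores in either list were whole numbers to within 0.001. Peaks joined by gaps of at most 1 kb had whole scores in 30.5% of cases with DOP and 30.3% without, but their sums were whole for 93.7% and 93.2% of the joined groups. The scores of neighbouring events thus usually added up to a whole number, and sums over regions are given below beside single peaks.

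The labelled cell type was compared with marker genes, of which a gene counted as marked when a peak lay within 10 kb of a start. Of 14 annotated genes of striatal and ventral forebrain progenitors, 6 were marked with DOP and 4 without, where 57.7% and 56.9% of all protein-coding genes were. Those with peaks included Dlx1, Meis2 and Ebf1 in both lists and Dlx2 and Dlx6 in the DOP-treated list only, whereas Nes, Sox2, Pax6, Gsx2, Dlx5, Isl1 and Nkx2-1 were among those with none in either. Of 6 genes of mature striatal neurons, only Ppp1r1b was marked, and of 6 genes of fibroblasts or mesenchyme, 5 were marked in both lists, all but Thy1. The defining neural progenitor markers Nes and Sox2 thus carried no peak in the cells whose Hox peaks are described here, and the part of this in the Hox results was not tested.

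The sequences under the highest-scoring peaks that lie outside untranslated regions are shown for 3 of the clusters as examples, and do not stand for all Hox peaks. They are given on the plus strand of mm9, with each CG dinucleotide in capitals, because a high density of CG is the mark of a CpG island. The HoxA peak lies at chr6:52114285-52114484 in a coding exon of Hoxa2 and holds 24 CG, the HoxB peak at chr11:96133598-96133797 in an intron of Hoxb9 and holds 20, and the HoxC peak at chr15:102812278-102812477 in a coding exon of Hoxc9 and holds 28.
HoxA peak of the DOP-treated list: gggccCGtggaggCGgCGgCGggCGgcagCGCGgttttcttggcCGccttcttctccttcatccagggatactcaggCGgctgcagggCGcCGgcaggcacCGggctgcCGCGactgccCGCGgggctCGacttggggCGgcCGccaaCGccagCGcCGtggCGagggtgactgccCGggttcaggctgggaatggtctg
HoxB peak of the untreated list: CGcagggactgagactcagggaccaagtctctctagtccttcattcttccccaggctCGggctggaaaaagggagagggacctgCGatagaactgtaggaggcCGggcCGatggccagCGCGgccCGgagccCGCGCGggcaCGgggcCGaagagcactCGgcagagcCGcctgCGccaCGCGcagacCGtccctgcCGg
HoxC peak of the DOP-treated list: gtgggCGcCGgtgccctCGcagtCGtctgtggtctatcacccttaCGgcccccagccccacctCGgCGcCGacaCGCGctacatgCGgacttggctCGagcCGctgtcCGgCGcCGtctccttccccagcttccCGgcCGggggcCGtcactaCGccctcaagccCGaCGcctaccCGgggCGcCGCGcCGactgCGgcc
In these intervals the share of G and C was 74.0%, 69.0% and 74.5%, and the observed number of CG over that predicted from the base composition was 0.89, 0.84 and 1.05. The DOP-treated peak at the same Hoxb9 site was called 65 bp away, at chr11:96133533-96133732, and its ratio was 0.45.

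Of the 6 miRNA genes annotated inside the clusters, 5 belong to families that, like the Hox genes, recur between clusters. Mature sequences were found for 6 of 6 genes in the RefSeq table of the GRCm38.p6 build, and 1 arm of each is shown because these arms group the genes by shared seed, bases 2 to 8, which is in capitals.
miR-10a-5p: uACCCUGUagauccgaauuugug
miR-10b-5p: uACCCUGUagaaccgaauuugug
miR-196a-5p: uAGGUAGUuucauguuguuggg
miR-196b-5p: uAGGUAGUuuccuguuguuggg
miR-615-3p: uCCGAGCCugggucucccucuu
Mir10a of HoxB and Mir10b of HoxD share the seed ACCCUGU, and Mir196b of HoxA, Mir196a-1 of HoxB and Mir196a-2 of HoxC share AGGUAGU. Their peaks are described with the non-coding genes further on.

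Along the chromosomes, H3K9ac peaks were dense in HoxB, intermediate in HoxA and HoxC, and nearly missing from HoxD. Between the outer ends of the Hox genes, HoxB (chr11:96055630-96229570, 10 genes) held 2.41 peaks per 10 kb with DOP and 2.64 without. HoxA (chr6:52105366-52210874, 11 genes) held 2.09 and 1.99, HoxC (chr15:102751534-102867274, 9 genes) 2.07 and 1.81, and HoxD (chr2:74506367-74603200, 9 genes) 0.103 and 0.207. The whole genome held 0.129 peaks per 10 kb with DOP and 0.126 without. The HoxB span held 42 peaks with DOP and 46 without, of which 39 in each list were Hox peaks. HoxB ranked highest and HoxD lowest in both lists under each filter on score and each span tried, while HoxA and HoxC changed places in 3 of the 6 combinations of list and setting.

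The clusters also differed in the height of their peaks. The median Hox peak of HoxB was at percentile 74.7 with DOP and 72.1 without, against 44.9 and 36.6 in HoxA, 45.8 and 46.6 in HoxC, and 12.7 and 7.53 in HoxD. Over the 4 clusters together the median was 52.8 and 54.6, close to the 55.2 and 55.1 of all peaks within 10 kb of a protein-coding start. The range was wide, from a score of 60 to 1799.5 with DOP and from 39.7 to 1901.6 without. The score summed over the peaks of a span and divided by its length was 188 per kb with DOP and 193 without for HoxB. It was 101 and 82.1 for HoxC, 86.0 and 66.0 for HoxA, and 1.24 and 1.51 for HoxD. The HoxB values include 3 peaks with DOP and 7 without that are not Hox peaks.

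**Figure D1:**
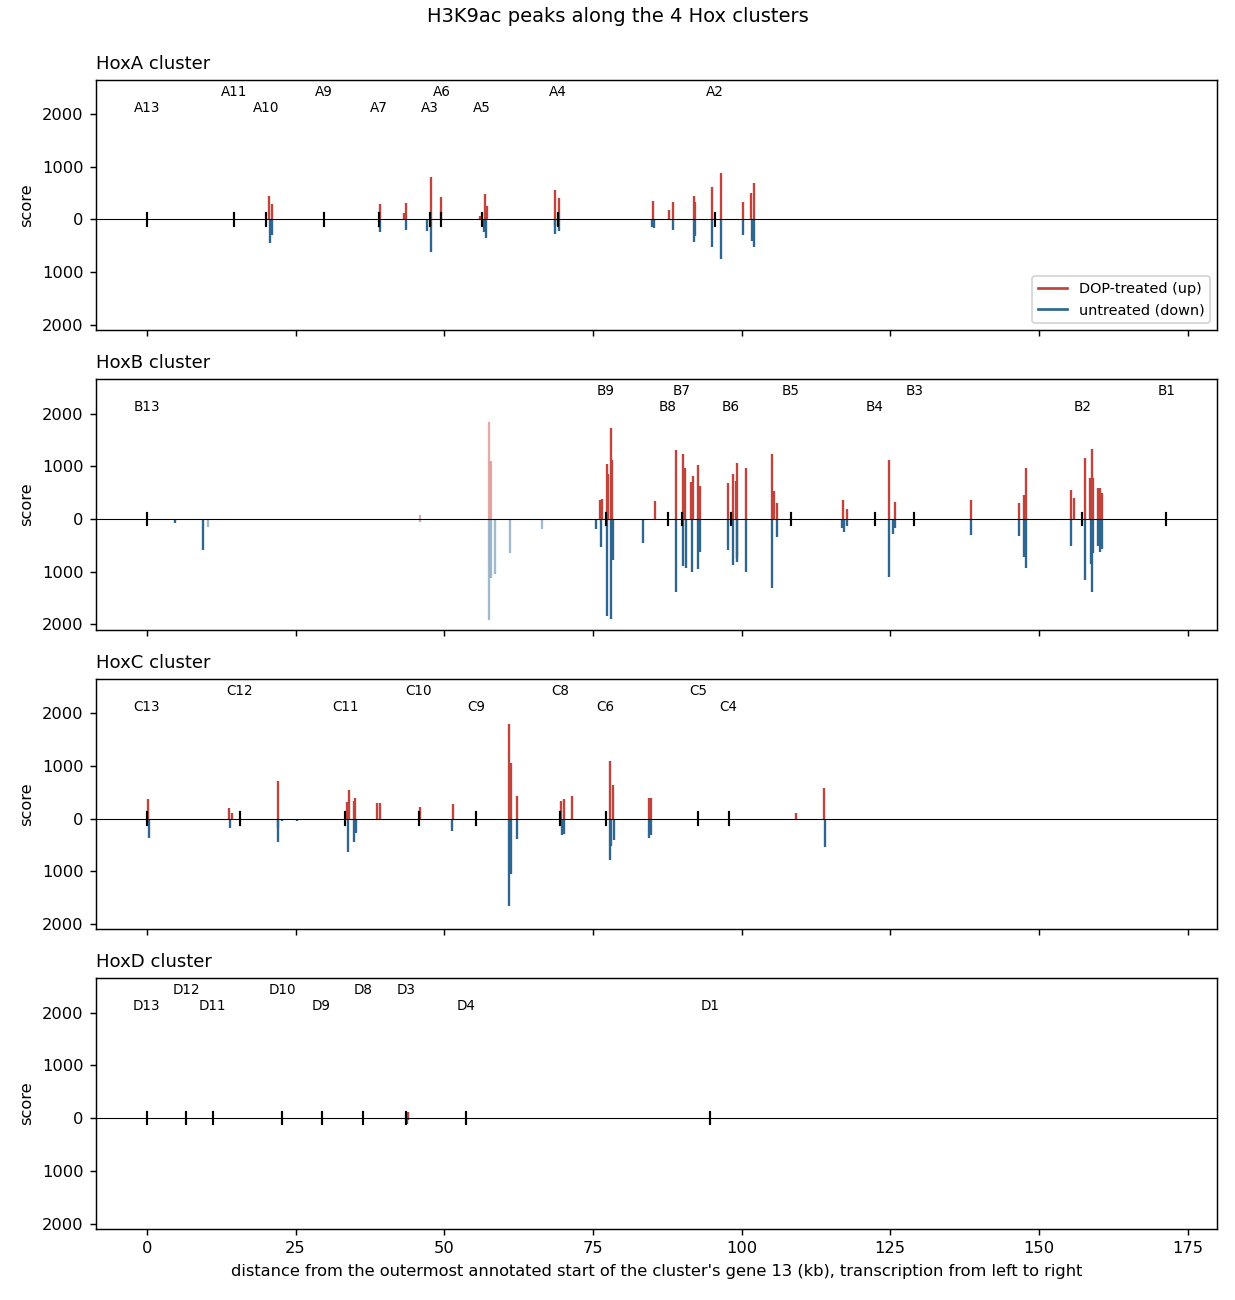
H3K9ac peaks along the 4 Hox clusters, with the score of each peak (vertical axis, no unit given by the authors) against distance from the outermost annotated start of gene 13 (horizontal axis, kb). DOP-treated peaks point up in red and untreated peaks down in blue, black ticks are the outermost annotated starts of the Hox genes shown, which places the distal starts of Hoxa3 and Hoxd3 among higher-numbered genes, and pale lines are peaks over 10 kb from every Hox start. The blocks of peaks recur in both lists, and HoxD shows only the low peaks at Hoxd3.

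Of the 39 Hox genes, 30 (76.9%) had a peak within 10 kb of a start with DOP and 31 (79.5%) without. Among all protein-coding genes the shares were 57.7% and 56.9%. Since starts in a cluster lie close together, 66 of the 86 DOP-treated and 62 of the 83 untreated Hox peaks were within 10 kb of 2 or more Hox genes, and at most of 4, so neighbouring genes often counted the same peak. With the distance reduced to 1 kb, 21 Hox genes (53.8%) had a peak with DOP and 19 (48.7%) without, against 51.4% and 50.8% of all protein-coding genes. The share of Hox genes with a peak right at a start was therefore near the background.

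Start peaks differed between clusters and were least frequent among the posterior genes. Within 1 kb, 8 of 11 HoxA genes were marked with DOP and 7 without, 6 and 6 of 10 in HoxB, 6 and 5 of 9 in HoxC, and 1 and 1 of 9 in HoxD. Among the 12 anterior genes (paralogues 1 to 4) 8 were marked in each list, and among the 11 central genes (5 to 8) 8 and 7. Among the 16 posterior genes (9 to 13) 5 and 4 were. The posterior genes include Hoxd9 to Hoxd13, none of which had a start peak, so cluster and position are not separated in these counts. In paralogue groups 2, 3 and 7, which hold 2, 3 and 2 genes, every gene had a start peak in both lists. In contrast, Hoxc12 and Hoxd12, which form group 12, had none. No start was marked in the untreated list alone, and the starts marked only in the DOP-treated list were Hoxa6 and Hoxc10.

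**Figure D2:**
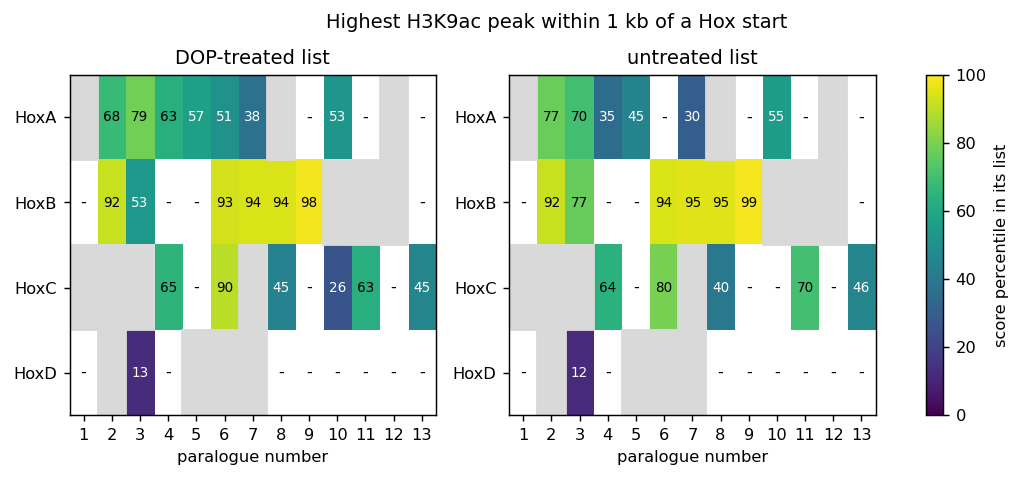
Score percentile of the highest H3K9ac peak within 1 kb of a start of each Hox gene, by cluster (rows) and paralogue number (columns), in the DOP-treated list (left) and the untreated list (right). A dash is a Hox gene without such a peak and grey a position with no gene in that cluster or not shown. HoxB genes 6 to 9 reach percentiles of 93 to 99 in both lists, and the HoxD row holds a single entry below 13.

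HoxB held the highest start peaks of the Hox genes. The highest was at Hoxb9, a gene of the thoracic axis, which scored 1733.9 (percentile 98.1) with DOP and 1901.6 (percentile 98.6) without, at 795 and 860 bp downstream of a start and inside an intron. A second site in its coding exon scored 1847 in the untreated list, where the DOP-treated list divided the site into 2 events of 1046.3 and 853.7. Summed over the region of 3091 bp around the Hoxb9 start, the score was 5497 with DOP and 5235 without, so the gap between single peaks was not seen in the sums.

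The neighbours of Hoxb9 formed a row of strong start peaks. Hoxb8, which acts in the trunk and in microglia, and Hoxb7 shared a peak of 1310 with DOP and 1385 without (percentiles 94.2 and 95.2), which lies in a coding exon of Hoxb8. Hoxb6 reached 1234.3 and 1310 (percentiles 93.0 and 94.4), and Hoxb2, a patterning gene of the hindbrain, 1163 and 1148 (percentile 91.5 in both). These values differed little between the lists. Hoxb3 was lower, at 448 with DOP and 729.1 without within 1 kb, while a higher peak in a Hoxb3 intron lay just outside that limit, at 1148 bp with 976 and at 1178 bp with 927.9. In both lists this peak was 15 bp from the start of the non-coding gene Gm11536, nearer than to any Hoxb3 start.

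Hoxb4 and Hoxb5 had no peak within 1 kb but strong peaks within 10 kb. The nearest peak to the start of Hoxb4, a regulator of blood stem cells, lay 2395 bp downstream in a coding exon with a score of 1112 in the DOP-treated list, and at 2397 bp with 1091 in the untreated list. The nearest to the start of Hoxb5 lay 2254 bp away with DOP and 2392 bp away without, in an intron of Hoxb6. These were not strong, with scores of 312 and 335 (percentiles 37.8 and 42.4). The highest within 10 kb of Hoxb5 were the Hoxb6 peaks at percentiles 93.0 and 94.4. The ends of the cluster differed from its middle. Hoxb1, the hindbrain gene at the 3′ end, had no peak within 10 kb in either list, the nearest lying at 10863 bp and 10873 bp.

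Hoxb13, a prostate and tail gene that stands apart at the 5′ end of HoxB, was the only Hox gene that passed the 10 kb rule in 1 list alone. The untreated list held peaks 4707 bp (score 75, percentile 7.72) and 9383 bp (score 589, percentile 67.6) downstream of its start, the latter at chr11:96064914-96065113, 245 bp from the start of the non-coding gene Gm11538. A further untreated peak of 160 followed at 10236 bp, just past the limit. The DOP-treated list had no peak over a stretch of 45.9 kb from the Hoxb13 end of the cluster, and its nearest peak to Hoxb13 lay 45947 bp from the start.

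Between Hoxb13 and Hoxb9 lies the gene Gm53, whose peaks are over 10 kb from every Hox start and are not among the Hox peaks. Its start peak had 1841.2 with DOP and 1907.3 without (percentiles 98.6 and 98.7), the highest value within the span of any of the clusters in either list. A neighbouring peak scored 1107.8 and 1109.7. In the introns of Gm53 the untreated list held 3 more peaks, with scores of 1036, 640 and 182, that no DOP-treated interval overlapped. The DOP-treated list thus had 3 peaks of HoxB beyond 10 kb of a start and the untreated list 7.

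HoxA was marked at lower levels than HoxB. Its longest stretch free of peaks, counted up to the cluster ends, was 20.6 kb in both lists. In HoxB that stretch was longer, at 45.9 kb with DOP and 35.7 kb without. Joined by gaps of at most 1 kb, the HoxA peaks made 14 groups with DOP and 13 without, the same numbers as in HoxC. Hoxa3, a gene of the thymus and parathyroid, reached 798 with DOP and 621 without (percentiles 78.7 and 69.9) at its distal start, in an untranslated exon.

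The highest HoxA peak, whose sequence is shown above, was in a coding exon of Hoxa2, a hindbrain and facial skeleton gene, and scored 886 with DOP and 741 without. It lay 1028 bp from the start with DOP and exactly 1000 bp without, so that only the untreated position fell inside the 1 kb limit. The Hoxa2 start peak of the DOP-treated list was therefore the next site, at 454 bp with 616 (percentile 67.8), where the untreated list had 527 at 492 bp. Both sites scored higher in the DOP-treated list, as did the median region of the genome found in both lists. Relative to that median the 2 sites were 1.1-fold and 1.07-fold.

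The start peaks of Hoxa4, Hoxa5 and Hoxa7 were lower than those at the distal Hoxa3 start. Hoxa4 had 555 with DOP and 276.2 without (percentiles 63.2 and 35.2). The untreated list divided this Hoxa4 site into events of 276.2 and 127.8, both overlapping the DOP-treated interval. Summed over the region of 967 bp around the Hoxa4 start, which includes a neighbouring site, the score was 958 with DOP and 623 without. Relative to the median region of the genome found in both lists, these sums were 1.41-fold. Hoxa5, a gene of lung development, had 483 and 351.5 (percentiles 56.6 and 44.6). Hoxa7 had 310 and 236 (percentiles 37.6 and 29.9), which belong to peaks at different starts of the gene. Site by site, the scores were 310 with DOP and 208 without at an inner start. At the outermost Hoxa7 start they were 285 and 236. Hoxa10, a gene of the uterus and lumbar axis, lies further 5′ and had 441.5 and 444.8 (percentiles 52.5 and 54.8), nearly the same value in both lists.

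Hoxa6 had a start peak only in the DOP-treated list, at chr6:52161387-52161586, 131 bp upstream of the start, with a score of 423 (percentile 50.5). The nearest untreated centre lay 1654 bp away, at the distal Hoxa3 start. Hoxa9 and Hoxa11 had no peak within 1 kb and were counted through peaks at least 4524 bp and 5529 bp away. Past Hoxa10 the cluster held no peak in either list for 20.6 kb, up to the start of Hoxa13, a limb and genital gene, whose nearest peaks lay at 20531 bp with DOP and 20544 bp without.

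HoxC showed a few high sites. Its longest gap was 24.3 kb with DOP and 29.2 kb without, longer than in HoxA and shorter than in HoxB. The highest site, shown above, lay in a coding exon of Hoxc9, a gene that sets thoracic identity, and scored 1799.5 with DOP and 1663 without (percentiles 98.5 and 97.6). It was 4914 bp and 4898 bp downstream of the nearest Hoxc9 start, and the next peak, 1058.5 with DOP and 1052 without, lay in the following intron. Hoxc9 itself had no peak within 1 kb of a start, so a promoter window alone would leave out the strongest site of the cluster.

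Among the HoxC starts, Hoxc6 was the highest and scored 1082.5 with DOP and 788.4 without (percentiles 89.6 and 79.6). The untreated list had 3 events there and the DOP-treated list 2, and their sums were 1705 and 1713. Hoxc4 had 576 with DOP and 539 without (percentiles 64.9 and 63.7) at its inner start, and Hoxc11, a posterior gene, had 547.1 and 626 (percentiles 62.6 and 70.2). Summed over the region of 1741 bp at the Hoxc11 start, 4 DOP-treated events gave 1589 and 3 untreated events 1355. Hoxc13, a hair and nail gene, had 377 and 360 (percentiles 45.4 and 45.5), and Hoxc8, which marks brachial motor neurons, 369.3 and 314 (percentiles 44.5 and 39.9). The Hoxc8 values are of different sites, 585 bp and 211 bp from the start. At the site of the former the untreated list had 297, and at the site of the latter the DOP-treated list had 337.7.

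Hoxc10, a gene of lumbar motor neurons, was the other start marked in the DOP-treated list only, at chr15:102797429-102797628, 301 bp inside the gene, with a score of 218 (percentile 26.0). The nearest untreated centre was 5367 bp away. Hoxc5 and Hoxc12 had no peak within 1 kb, and their nearest DOP-treated peaks lay 7882 bp and 1415 bp from a start. All 9 HoxC genes had a peak within 10 kb in both lists.

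HoxD was almost free of peaks. The DOP-treated list held a single event, with a score of 120 (percentile 12.7), and the untreated list 2, with 106.3 and 39.7 (percentiles 12.1 and 2.93). They lay at chr2:74549982-74550407, in an untranslated exon at the outermost start of Hoxd3, 30 to 196 bp from the start of the antisense gene annotated as 1700109F18Rik. Hoxd4 and Hoxd8 were counted through this same site, 9839 bp and 6987 bp away in the DOP-treated list.

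No peak of either list lay within 10 kb of 8 Hox genes, which are 6 genes of HoxD, Hoxa13 and Hoxb1. Among all protein-coding genes 40.7% had none. The HoxD genes without peaks were Hoxd1, whose nearest peaks lay at 32791 bp with DOP and 32800 bp without, and Hoxd9, Hoxd10, Hoxd11, Hoxd12 and Hoxd13, at distances that grew along the cluster from 14459 bp to 43829 bp in the DOP-treated list. Hoxd13 and Hoxa13, the limb and digit genes at the 5′ ends, and the anterior genes Hoxb1 and Hoxd1 at the 3′ ends are the outer members of their clusters. Outer members were not all without peaks, since Hoxc13 and Hoxc4 had start peaks in both lists and Hoxb13 had untreated peaks within 10 kb.

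The Hox peaks lay farther from starts than other gene-associated peaks. Of the 86 DOP-treated Hox peaks 43 (95% Wilson interval of the share 39.7% to 60.3%, which covers the counting of peaks only) were within 1 kb of a Hox start, and of the untreated ones 39 (47.0%, 36.6% to 57.6%). Among all peaks within 10 kb of a protein-coding start, 86.9% and 87.7% lay within 1 kb of one. The median distance to the nearest Hox start was 999 bp and 1181 bp, against 309 bp and 307 bp for all such peaks. Even when the starts of non-coding genes were admitted, 59.3% and 59.0% of Hox peaks were within 1 kb of a start, against 88.2% and 88.9%.

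Most Hox peaks lay downstream of the nearest Hox start, 55 of 86 (64.0%) with DOP and 54 of 83 (65.1%) without. By annotation, 23 DOP-treated and 22 untreated peaks were centred in coding exons, 14 and 13 in untranslated regions, 31 and 27 in introns, 1 and 1 in other exons, and 17 and 20 outside protein-coding genes. A non-coding start was nearer than any Hox start for 22 and 30 of the peaks. These counts depend on the annotation, in which Hox transcripts overlap each other, as Hoxa3 overlaps Hoxa4 to Hoxa6. The same shares were not counted for all peaks near protein-coding starts, so these numbers do not set Hox peaks apart.

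The median share of G and C in Hox peaks was 61.0% with DOP and 61.5% without, against 60.5% and 61.0% for all peaks near protein-coding starts. The median CG ratio was 0.62 and 0.72, against 0.67 and 0.68. Counting intervals with a ratio of at least 0.6 and at least 50% G and C as CpG-rich, 44 of 86 DOP-treated Hox peaks (51.2%, 40.8% to 61.4%) and 55 of 83 untreated ones (66.3%, 55.6% to 75.5%) qualified, against 54.1% and 55.5%. The interval of the untreated list began at 55.6%, next to its background of 55.5%, and that of the DOP-treated list included its background. Several peaks can be called in 1 acetylated region, so peaks are not independent and these intervals may be too narrow. No difference from the background is read from them. By cluster, the CpG-rich intervals numbered 19 with DOP and 26 without in HoxB, 14 and 14 in HoxA, 10 and 13 in HoxC, and 1 and 2 in HoxD.

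**Figure D3:**
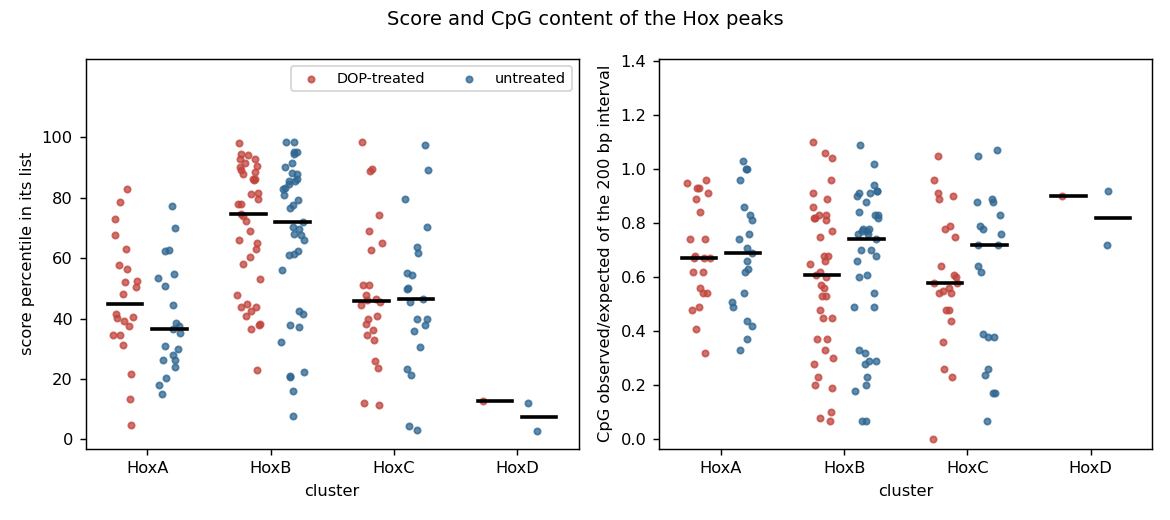
Score percentile within its list (left) and observed over predicted CG number of the 200 bp interval (right) of every Hox peak, by cluster. Red points are DOP-treated peaks, blue points untreated peaks and black bars medians. HoxB peaks have the highest median percentile (74.7 and 72.1), HoxD holds 1 and 2 points near the bottom, and the CG ratio overlaps widely between clusters.

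The lists shared most Hox peaks. An interval was counted as shared when it overlapped an interval of the other list by at least 1 bp, and 70 of the 86 DOP-treated and 74 of the 83 untreated Hox peaks were. The called positions of shared peaks differed by a median of 34 bp seen from the DOP-treated list and 36.5 bp seen from the untreated list, with extremes of 1 bp and 190 bp, and by 33 bp and 34 bp over all peaks. In the DOP-treated list alone were 16 Hox peaks (18.6%, Wilson interval 11.8% to 28.1%), against 16.2% of all its peaks near protein-coding starts. In the untreated list alone were 9 (10.8%, 5.81% to 19.3%), against 13.3%. The intervals include the background in both cases.

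Of the unshared peaks, 9 with DOP and 5 without lay within 1 kb of a centre of the other list. A centre of the other list lay within 1 kb of all but 7 DOP-treated Hox peaks (8.14%) and all but 4 untreated ones (4.82%), where the shares for all peaks near protein-coding starts were 5.54% and 3.99%. Of the 7 in the DOP-treated list 5 were in HoxC. These were the Hoxc10 start, a pair of peaks of 299 and 286 lying 5305 bp and 5925 bp downstream of the Hoxc11 start, a peak of 427 in a coding exon of Hoxc8 and a peak of 114 in an intron of Hoxc4. The other 2 were the Hoxa6 start and a peak of 339 lying 2077 bp upstream of Hoxb8.

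The 4 untreated peaks without a DOP-treated centre within 1 kb comprised the pair near Hoxb13, a peak of 459 lying 4248 bp upstream of Hoxb8 and a peak of 41 in the non-coding gene Gm16258 of HoxC, whose current symbol is Hotair. The peaks upstream of Hoxb8 in the 2 lists were 2171 bp apart. Within 10 kb of the starts, the DOP-treated list had more peaks than the untreated list at 15 Hox genes, fewer at 7 and as many at 17.

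Because several events can be called in 1 acetylated region, the centres of both lists were also joined into regions by gaps of at most 1 kb, and the scores were summed per region and list. This comparison was chosen after the peaks had been seen. The genome held 18457 such regions, of which 13561 had peaks of both lists, and the median of their log2 ratios of DOP-treated over untreated score was 0.12. Hox peaks fell into 46 regions, of which 36 had peaks of both lists, 6 of the DOP-treated list only and 4 of the untreated list only. Relative to the median of all regions, the median log2 ratio of the 36 was 0.03, and those of all regions had quartiles at -0.16 and 0.19.

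The clusters took different places around this median. The median log2 ratio relative to all regions was 0.13 in HoxA, where 10 of 13 regions were above the median of all regions, -0.09 in HoxB, 0.02 in HoxC and -0.41 for the single region of HoxD. Among the 4760 regions of both lists whose untreated score lay in the range of the HoxA regions, which include these 13, the median was 0.09, close to that of HoxA. The sums over all peaks of a span gave 9076 with DOP and 6959 without for HoxA and 32644 and 33584.2 for HoxB. For HoxC they were 11664 and 9501, and for HoxD 120 and 146. The HoxB sums hold 3 peaks with DOP and 7 without that lie over 10 kb from every Hox start, most of them at Gm53. Without these peaks the HoxB sum was higher with DOP. The sums are not set relative to the median of all regions, which was itself higher with DOP, at a log2 ratio of 0.12. Relative to that median the HoxB regions were lower with DOP, at the -0.09 given above.

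A region was called different when its ratio was at least 1.5-fold from the median of all regions. This held for 4 of the 36 Hox regions (11.1%) in the direction of higher scores with DOP, against 4.83% of all regions, and for 0 in the direction of lower scores, against 2.49%. No p-value belongs to these counts. The greatest ratio was 2.49-fold at chr6:52122285-52123103, at an inner start of Hoxa3 next to the non-coding gene Gm15050, where the summed score was 520 with DOP and 192 without. It was followed by 1.92-fold at an inner start of Hoxa7, with 436 and 208.

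The other regions were an interval 1903 bp upstream of Hoxb2, with 952 and 512 (1.71-fold), and another upstream of Hoxc12, with 311 and 187 (1.53-fold). In each of the 4 regions the DOP-treated list had 2 events and the untreated list 1. Of the 9 Hox regions with more DOP-treated events these 4 passed the limit, against 15.9% of all such regions, and of the 19 Hox regions with equal numbers of events 0 passed it in either direction, against 2.03% higher and 0.423% lower among 7323 regions. Whether the higher sums came with more acetylation or with the way events were called was not tested.

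**Figure D4:**
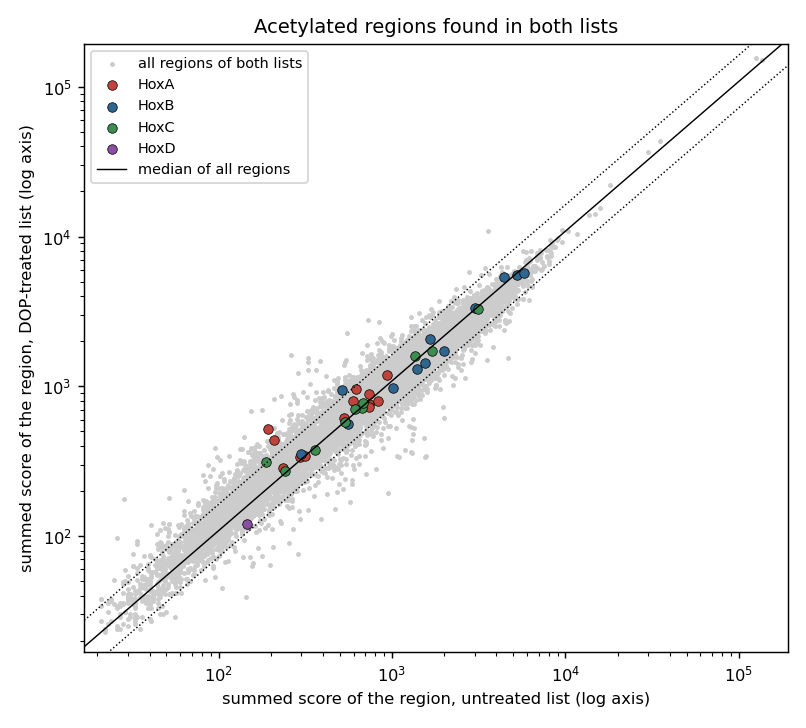
Summed score of each region found in both lists, untreated (horizontal) against DOP-treated (vertical), both on log axes. Grey points are all 13561 regions, coloured points the 36 Hox regions by cluster, the solid line the median ratio of all regions and the dotted lines 1.5-fold from it. Most Hox regions lie between the dotted lines, the HoxA points at low scores are the farthest above, and no Hox point is below the lower line.

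Non-coding genes of the clusters lay at very different distances from peaks. The nearest peak to the start of 5730446D14Rik (Hoxaas2) was at 193 bp with DOP and 225 bp without, and for 2700086A05Rik (Hoxaas3) at 527 bp and 408 bp. In HoxB, Hoxb3os had a peak at 93 bp and 131 bp. In the middle of HoxB, 0610040B09Rik (Hoxb5os) had the peak nearest to its start at 4399 bp and 4268 bp. Among the non-coding genes near posterior Hox genes, Gm15053 (Hottip), next to Hoxa13, was at 22504 bp and 22517 bp from the nearest peak, Gm16258 (Hotair), between Hoxc12 and Hoxc11, at 5242 bp and 2103 bp, and Gm11538, next to Hoxb13, at 36809 bp and 245 bp. The last was the untreated peak of 589 described above.

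The miRNA genes with a shared seed differed in their surroundings. Mir10a, in HoxB next to Hoxb4, had its nearest peak at 1914 bp with DOP and 1916 bp without, the strong Hoxb4 exon peak at percentiles 90.3 and 90.2. Mir10b, which carries the same seed, had none nearer than 13931 bp and 13820 bp in HoxD. Of the genes with the seed AGGUAGU, Mir196a-2 had a peak of 271 and 240 at 837 bp and 877 bp, Mir196a-1 at 5359 bp and 4418 bp, and Mir196b at 8538 bp and 8544 bp. Mir615 in HoxC had its nearest peak at 8977 bp and 9051 bp. The annotated ends of miRNA genes are those of the hairpins, so the distances are not to promoters.

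Genes that act with Hox proteins were read against the 57.7% of all protein-coding genes marked with DOP and the 56.9% marked without. All 9 of the TALE homeodomain cofactors, genes of the Pbx, Meis and Pknox families, had a peak within 10 kb in both lists. The highest were at Pknox1 (percentile 95.3 with DOP and 92.9 without) and Pbx3 (93.2 and 95.1), and the lowest at Meis3 (26.7 and 21.3). Of 15 regulators of the clusters, 14 were marked in both lists, among them the Polycomb genes Ezh2 (98.3 and 98.4) and Suz12 (98.7 and 97.8) and the architectural factor Ctcf (99.6 and 98.6). The retinoic acid receptor gene Rarb had no peak, while Rara had 12 peaks in either list and Rarg 10 and 8.

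The relatives of the Hox genes outside the clusters and the neighbours of the clusters were counted against the same shares. Of the 6 ParaHox and Cdx genes, which descend from the same ancestral group, Cdx1 had 3 peaks in either list (percentiles 63.1 and 70.9), Cdx2 a single DOP-treated peak at percentile 9.97, and Gsx1, Gsx2, Pdx1 and Cdx4 none, where 40.7% of all protein-coding genes had none in either list. With 6 genes these counts set nothing apart. Of 16 annotated neighbours of the clusters, 12 were marked with DOP and 13 without. The homeobox gene Evx2, beside Hoxd13, had no peak, and Evx1, beside Hoxa13, had only an untreated peak at percentile 2.5. In contrast Mtx2 and Lnp, the genes on either side of HoxD, reached percentiles 85.8 and 71.6 for Mtx2, and 64.6 and 89.6 for Lnp, so that the low level of HoxD did not extend to them.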

How the data were processed

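H3K9ac ChIP-seq libraries were made from 2 DOP-treated and 2 untreated samples of STHdh Q111 cells, with 1 IgG sample. Per the paper, the authors used Bowtie 2 for alignment to mm9 and GPS for peak calling, while the submitters' processing notes name BWA 0.7.10. The deposited lists hold 1 score per peak, whose definition is not given in the sources used here, and neither is how samples and IgG entered the call. The numbers of peaks in the lists are not those that the paper's methods state, and no step between them is named. The depth behind a peak is not known. Genotypes other than Q111, reads and transcripts were not analysed here.

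Peaks, genes and sequence were joined on NCBIM37 (mm9) with GENCODE vM1, and 0 peaks passed a chromosome end. Members and gene lists were chosen with earlier results of these data known. Named genes were those with a start peak within 1 kb in either list or none within 10 kb, and named peaks the 2 highest per cluster and list and those without a centre of the other list within 1 kb; other Hox genes and peaks named were added after their values were seen, and a few genes of the lists are not reported here. Regions and the fold limit of 1.5 were added after seeing the data. The alternatives changed windows, scores, start definition and overlap rule. The functions were tested on simulated data (7 of 7 planted answers among 2000 sites). Python 3.11.15, numpy 2.4.6, pandas 2.3.3, scipy 1.17.1 and matplotlib 3.10.9 were used.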

Additional observations from a re-analysis of the deposited data

How the results depend on the processing

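No paired analysis was possible because both lists come from a call per condition without replicate numbers, and for the same reason no replicate could be left out. Of 94 alternative values, 63 kept to within 1.5 times of the reported value and 31 did not. The number of Hox peaks was 43 with DOP and 39 without for a window of 1 kb, 48 and 45 in the top 50% of scores, and 44 and 43 after joining peaks within 1 kb. A window of 2 kb gave 54 untreated peaks, and 19 Hox genes had an untreated peak within 1 kb. The peaks of 1 list alone also moved. In the DOP-treated list they numbered 8 with a window of 1 kb, 7 in the top 50%, 6 after joining, 28 when 50% reciprocal overlap was required, and 9, 7 and 5 when centres within 500 bp, 1 kb and 2 kb were shared. In the untreated list they numbered 1, 2 and 15 with windows of 1, 2 and 20 kb, 4 in the top 50%, 4 after joining, 25 with reciprocal overlap, and 4 when centres within 1 kb or 2 kb were shared. Against the 16 and 9 reported, centres within 2 kb left 5 and 4. In the top 50% of scores the peaks per 10 kb became 0.948 with DOP and 0.663 without for HoxA, 0.778 in both for HoxC, and 0 in both for HoxD, and a minimum score of 100 gave 0.103 for HoxD in the untreated list. With regions joined within 500 bp, 1 Hox region was at least 1.5-fold lower with DOP. The unknown depth behind a score and the lack of replicates limit every difference between the lists.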
